A study of Homo sapiens with 6 samples.

Results

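The comparison of 7 days with 3 days of TGFβ in H2087-LCC cells covered the 14395 genes whose mean over the 6 deposited columns was 10 or more, of the 21293 genes in the table. H2087-LCC is a latency competent population of a human lung adenocarcinoma (LUAD) cell line, selected from the parental H2087 line by passage through mice and labelled as a dormant metastatic derivative. Poly(A) RNA was sequenced from cells treated with TGFβ for 3 days (2 libraries), with TGFβ for 7 days (2 libraries) or with the TGFβ receptor inhibitor SB505124 (SB) for 3 days (2 libraries). The study describes its replicates as technical, so SDs, standard errors and p-values measure the spread between libraries and may not cover separate cultures. The inhibitor was sampled at 3 days alone, so longer exposure to TGFβ and longer culture cannot be told apart. The SB libraries entered the fit for the estimate of the spread, and their values are given beside some of the single genes as a reference level.

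TGFβ binds a pair of receptor kinases that phosphorylate SMAD proteins, which enter the nucleus and switch on genes of the extracellular matrix, of cell shape and of feedback on the pathway itself, and in epithelial cells it drives an epithelial-to-mesenchymal transition (EMT). YAP and TAZ are coactivators that work with TEAD factors and respond to cell spreading and tension in the actin cytoskeleton. The comparison asks how the response of a dormant metastatic derivative to TGFβ differs between an early and a late time point.

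At 7 days, higher calls outnumbered lower calls among genes for collagens and other matrix proteins, lysosomal enzymes, retinoid handling and complement, and lower calls outnumbered higher calls among YAP and TAZ targets and genes for DNA replication, mitosis and ribosome production. Normalized counts (read counts scaled for library size by the authors) were compared as log2(value + 1) with limma, and a gene was called where its p, adjusted by the Benjamini-Hochberg method over all genes tested, was under 0.05. Of the 14395 genes tested, 4775 (33.2%) were called, with 2449 (17.0%) higher and 2326 (16.2%) lower at 7 days. These percentages are the background for the counts of gene lists given below. The median log2 fold change over all genes was 0.02. An absolute log2 fold change over 1 (more than 2-fold) was passed by 940 called genes (6.53% of those tested), 666 of them higher and 274 lower. Exact permutation of 2 against 2 libraries cannot give a p below 0.333, so single genes were judged by the fit across genes. The 3-day and 7-day libraries did not overlap in 9954 of the genes tested (69.1%), and among them were 4774 of the 4775 called genes. A lack of overlap in a called gene, given below for single genes, is therefore a description and adds nothing to its call.

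The direction of change moved with the level of the gene. Among the 2088 genes with a mean from 10 to 50 normalized counts, 274 were higher and 97 were lower. Among the 1599 genes with a mean of 5000 or more, 265 were higher and 477 were lower. The called genes with an absolute log2 fold change over 1 had a median mean level of 86.5 normalized counts where they rose and 127 where they fell. Leaving out 1 library reduced the number of called genes, to 2810 without the first 3-day library, 3284 without the second, 2573 when the first 7-day library was dropped and 2314 when the second was.

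**Figure D1:**
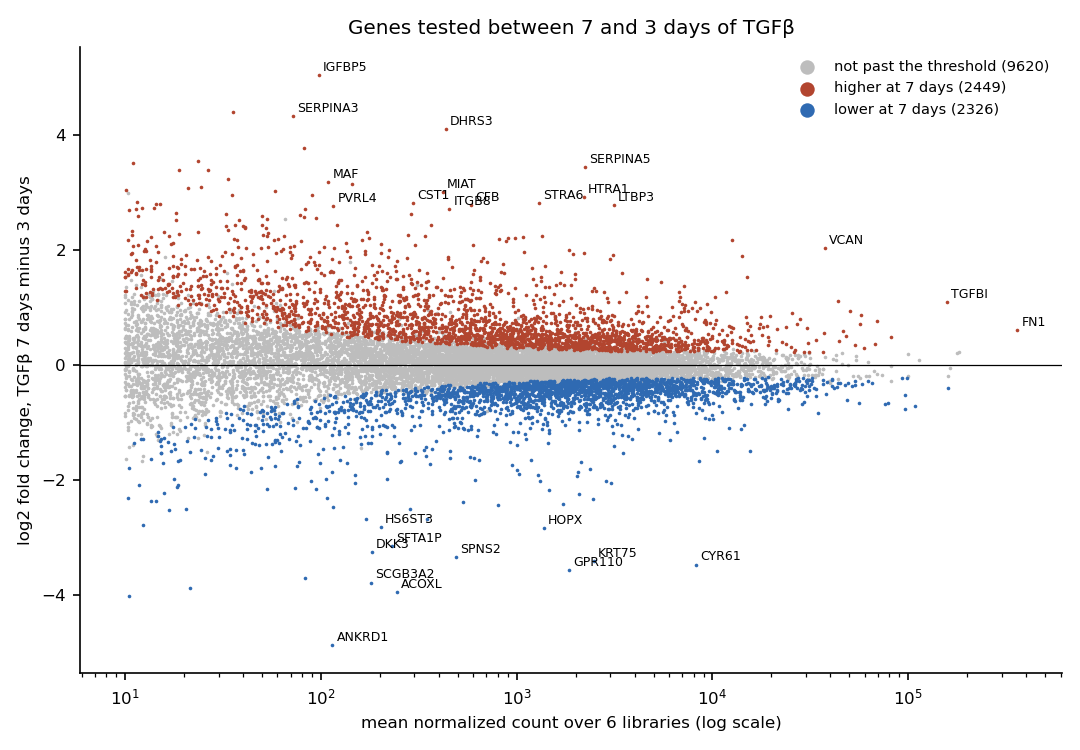
Each point is 1 of the 14395 genes tested, with its mean normalized count over 6 libraries on a log axis and its log2 fold change between 7 and 3 days of TGFβ on the vertical axis. The 2449 genes called higher and the 2326 called lower are colored. Of the genes with a mean of 5000 or more, 265 were called higher and 477 lower, and FN1, TGFBI and VCAN lie above 0 at the right edge.

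Replicate libraries differed in ways that touch these results. Across the 11389 genes whose mean was 100 or more, the difference between the second and the first 3-day library ran opposite to that between the second and the first 7-day library (Pearson r = -0.65 across genes, which are not independent). Collagen genes moved with this pattern, with a median of 0.29 for the second minus the first 3-day library and -0.19 for the second minus the first 7-day library on the log2 scale. The SB libraries, which are not part of the comparison, also differed from each other along its axis, with r = 0.44 between their difference and the difference of 7 days from 3 days over the same genes. Of the 2449 genes higher at 7 days, 1791 were higher in the second SB library than in the first, and of the 2326 genes lower at 7 days, 1812 were lower in it. Fits that crossed the replicate numbers or left out 1 SB library are described below with their counts of called genes. How far either pattern shaped the changes was not tested.

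The largest changes in normalized counts, which are not adjusted for transcript length, concerned a few matrix proteins. FN1, which encodes fibronectin (chr2:216225163-216300796 on GRCh37), had normalized counts of 358867 and 364251 at 3 days and 558569 and 545523 at 7 days. TGFBI, a secreted protein that binds collagen and integrins (chr5:135364677-135399507), had 142753 and 144378 at 3 days and 303620 and 307204 at 7 days. VCAN, the large proteoglycan versican (chr5:82767437-82878122), had 21439 and 21018 at 3 days and 85006 and 89304 at 7 days. For each of these genes both 7-day libraries lay above both 3-day libraries, and the SB libraries were lower still, at 162290 and 175381 for FN1, 23141 and 21758 for TGFBI and 4208 and 4595 for VCAN. The mean rose by 190487 normalized counts for FN1 (log2 fold change 0.61, standard error 0.08, adjusted p = 0.000359), by 161847 for TGFBI (log2 fold change 1.09, standard error 0.08, adjusted p = 5.89e-06) and by 65927 for VCAN (log2 fold change 2.04, standard error 0.08, adjusted p = 1.00e-07). Together they made up 1.44% and 1.48% of all normalized counts at 3 days and 2.65% and 2.62% at 7 days. The next gains were those of SCD, a fatty acid desaturase (47481 and 44904 at 3 days, 82511 and 86662 at 7 days), CTSB, the lysosomal protease cathepsin B (31073 and 32360, 69553 and 67136), MMP14, a membrane-bound collagenase (86804 and 98648, 135615 and 122833), and B2M, the light chain of MHC class I (54023 and 49531, 85149 and 90935). In all 4 genes the libraries of the time points did not overlap. In SB, SCD was at 32604 and 49078, CTSB at 29807 and 33418, MMP14 at 24795 and 21290 and B2M at 61251 and 73393. B2M was thus lower in both 3-day libraries than in either SB library. The call of MMP14 was lost without the first 7-day library (log2 fold change 0.41, adjusted p = 0.0596, against 0.48 and 0.00393 with it).

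The 10 genes that lost most normalized counts included genes of the cytoskeleton, of chaperones and of the nucleolus. The cytosolic chaperone HSP90AA1 went from 114570 and 102858 to 61291 and 66525, the mitochondrial chaperone HSPD1 from 38093 and 34572 to 19436 and 21182, and the thioredoxin reductase TXNRD1 from 90242 and 84810 to 53943 and 54468. NPM1 and NCL, which encode the nucleolar proteins nucleophosmin and nucleolin, fell by 0.66 each on the log2 scale, and TUBA1B, an α-tubulin, fell by 0.61. ACTB, which encodes β-actin, had 177096 and 202662 at 3 days and 149258 and 136597 at 7 days (log2 fold change -0.41, standard error 0.11, adjusted p = 0.0165). Its 7-day libraries lay within the range of the SB libraries (162375 and 130452). Its call was lost without the second 3-day library (-0.31, adjusted p = 0.119), without 7-day library 1 (-0.47, 0.0571) and without 7-day library 2 (-0.34, 0.157).

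**Figure D2:**
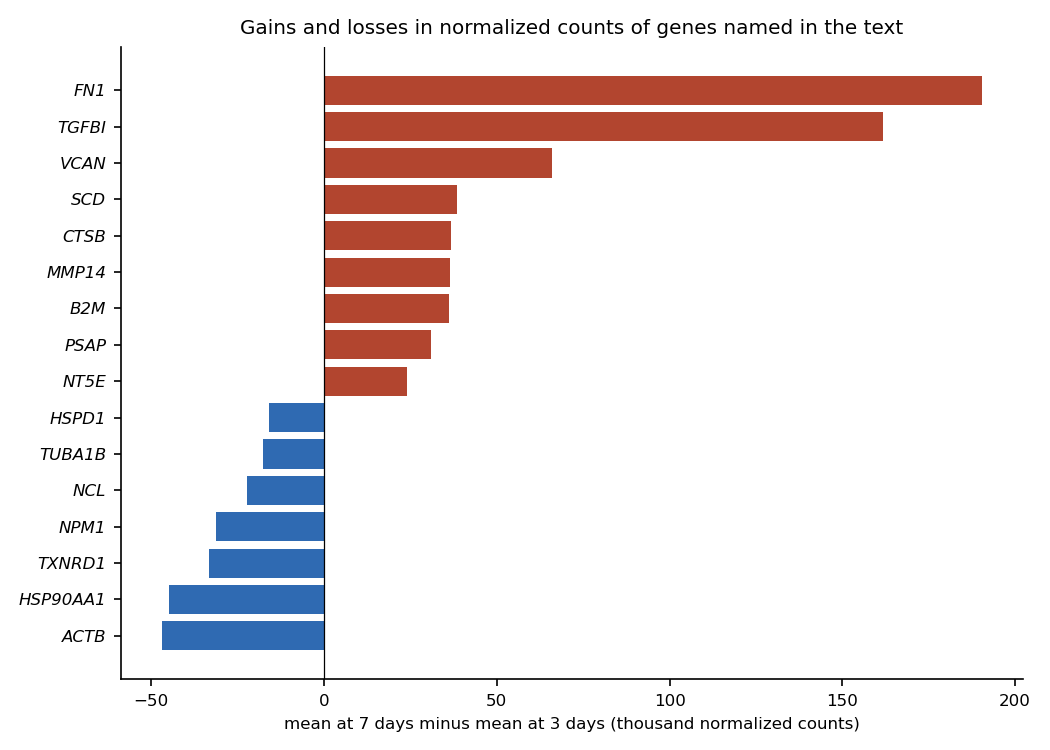
Bars give the mean normalized count at 7 days minus that at 3 days, on a linear axis in units of 1000, for the genes named in the text among the 10 called genes that gained most and the 10 that lost most. FN1 and TGFBI gained 190487 and 161847 normalized counts.

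By fold change, and among genes whose mean was 100 or more, the largest rises did not come from one function. SERPINA5, a secreted inhibitor of serine proteases (chr14:95027779-95059455), had 534 and 566 at 3 days and 6098 and 5906 at 7 days, against 124 and 205 in SB (log2 fold change 3.45, standard error 0.18, adjusted p = 6.64e-07). The transcription factor MAF (chr16:79619740-79634634) had 37 and 25 at 3 days and 274 and 298 at 7 days, against 11 and 11 in SB (log2 fold change 3.19, standard error 0.27, adjusted p = 1.44e-05). The long non-coding RNA MIAT rose from 124 and 145 to 1044 and 1138, the cysteine protease inhibitor CST1 from 106 and 105 to 816 and 687, and PVRL4, the cell adhesion protein nectin-4, from 45 and 42 to 312 and 292. In each of these 5 genes the 3-day libraries were above both SB libraries and the 7-day libraries were above both 3-day libraries. ITGB8, an integrin chain that binds latent TGFβ, followed another course, with 481 and 675 in SB, 110 and 95 at 3 days and 674 and 676 at 7 days (log2 fold change 2.71, standard error 0.17, adjusted p = 2.32e-06). The 7-day libraries of ITGB8 lay above the 3-day libraries and at the level of the higher SB library.

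Among the largest falls, several genes were already lower at 3 days than in SB. GPR110, an adhesion G protein-coupled receptor (chr6:46965445-47010086), had 4963 and 5071 in SB and 513 and 450 at 3 days and 40 and 39 at 7 days (log2 fold change -3.57, standard error 0.13, adjusted p = 6.14e-08). KRT75, a keratin, had 7309 and 7175 in SB, 147 and 153 at 3 days and 17 and 10 at 7 days. SPNS2, a transporter of sphingosine-1-phosphate, went from 252 and 334 to 29 and 26, ACOXL, related to peroxisomal acyl-CoA oxidases, from 59 and 72 to 2 and 5, and HS6ST3, a heparan sulfate sulfotransferase, from 118 and 107 to 14 and 16. For these 5 genes each step from SB to 3 days to 7 days was downward with no overlap between the libraries. SCGB3A2, a secretoglobin of airway cells, was at 15 and 11 at 3 days and at 0 in both 7-day libraries. The 7-day level was at least 4.33-fold lower when the 7-day libraries are set to a floor of 3 counts each. The log2 fold change of SCGB3A2 depended on the pseudocount (-3.79 with 1, -4.74 with 0.5 and -1.84 with 5), though it was called with each. The minimum mean for this ranking was taken over all libraries, SB included. SCGB3A2, ACOXL, HS6ST3, KRT75, ANKRD1 and SFTA1P, the last 2 described below, did not reach it on their TGFβ libraries alone. They were ranked only through their SB counts. For SCGB3A2, ACOXL, HS6ST3 and SFTA1P an SB mean above the 3-day mean followed from this filter, so that step is no result for them. HOPX, a homeodomain protein of alveolar cells, fell from 271 and 255 to 34 and 38.

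Among structural matrix genes the called members were mostly higher, against 17.0% of all genes tested. Of the 24 collagen chain genes tested, 12 were higher and 2 were lower at 7 days, and the median log2 fold change was 0.57. COL5A1, a chain of fibril-nucleating collagen V, had 508 and 605 at 3 days and 2770 and 2465 at 7 days (log2 fold change 2.23, standard error 0.20, adjusted p = 2.67e-05). COL6A3, a chain of the beaded-filament collagen VI, had 963 and 1149 at 3 days and 3017 and 2756 at 7 days (log2 fold change 1.45). COL15A1, a basement membrane collagen, had 124 and 118 at 3 days and 476 and 463 at 7 days (log2 fold change 1.95). Neither gene overlapped between time points, and the same was true of COL13A1 (log2 fold change 1.35) and COL14A1 (1.06). COL12A1 (87 and 90 at 3 days and 23 and 28 at 7 days) and COL8A1 (742 and 888 at 3 days and 505 and 507 at 7 days) fell. With 1 TGFβ library left out, the number of collagen genes higher was 6 to 12 and the median ranged from 0.30 without the first 3-day library, through 0.43 without the first 7-day library, to 0.85 without the second 3-day library.

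Among the 38 matrix glycoproteins tested, 19 were higher and 5 lower, with a median of 0.48. SPARC, a collagen-binding glycoprotein, had 8226 and 8035 at 3 days and 29826 and 30749 at 7 days (log2 fold change 1.90, standard error 0.08, adjusted p = 1.69e-07). SPOCK1, a testican, had 11884 and 11075 at 3 days and 32010 and 34421 at 7 days (log2 fold change 1.53, standard error 0.12, adjusted p = 1.25e-05). The latent TGFβ binding proteins, which hold the cytokine in the matrix, included LTBP3 with 851 and 1133 at 3 days and 7557 and 6058 at 7 days (log2 fold change 2.78, standard error 0.26, adjusted p = 2.74e-05), LTBP2 (7042 and 8575 at 3 days, 16149 and 14884 at 7 days) and LTBP1 (6719 and 6429, 10288 and 10258), all higher at 7 days. The microfibril protein MFAP2 (log2 fold change 1.72) and CTHRC1, a secreted protein of collagen-producing cells (1.05), rose too. In the other direction, FBN2, a fibrillin, had 20 and 22 at 3 days and 4 and 2 at 7 days and EFEMP1, a fibulin, 3432 and 3313 at 3 days and 1692 and 1792 at 7 days. Leaving out 1 library left 12 to 18 glycoprotein genes higher, the fewest without either 7-day library, and 3 to 5 lower.

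Proteoglycan and hyaluronan genes counted 7 higher and 0 lower (0 at an unadjusted p under 0.05) of 17, with a median of 0.33. Besides VCAN, HAS2, which synthesizes hyaluronan, had 143 and 153 at 3 days and 522 and 554 at 7 days (log2 fold change 1.86, standard error 0.23, adjusted p = 0.000160). The syndecan SDC2 had 19 and 21 at 3 days and 90 and 110 at 7 days (log2 fold change 2.26, standard error 0.26, adjusted p = 0.000106). CD44, the hyaluronan receptor, was not called (log2 fold change -0.15, adjusted p = 0.283). The median of this list was 0.07 when the first 3-day library was dropped and 0.60 when the second was, and 4 to 7 genes were higher with 1 library left out. Matrix enzymes, among them those that modify and link collagen, gave 11 higher and 1 lower of 16, with a median of 0.53. HTRA1, a secreted serine protease, had 727 and 769 at 3 days and 5449 and 5864 at 7 days (log2 fold change 2.92, standard error 0.24, adjusted p = 1.39e-05). BMP1, which trims procollagen, rose by 1.24 on the log2 scale, the crosslinking enzymes TGM2 and LOXL2 by 0.85 and 0.66, and the prolyl hydroxylases P4HA1 and P4HA3 by 0.75 and 0.88. LOX, the founding member of the lysyl oxidases, was the enzyme that fell (9967 and 8782 at 3 days and 6206 and 6298 at 7 days, log2 fold change -0.58, standard error 0.13, adjusted p = 0.00541) but was not called when low genes were kept or when limma was run with no trend.

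Of 27 matrix proteases and inhibitors tested, 15 were higher and 3 lower, with a median of 0.55. The inhibitors TIMP1 (6635 and 7787 at 3 days, 13390 and 11725 at 7 days) and TIMP2 (16569 and 16944, 29986 and 29908) rose by 0.80 and 0.84 on the log2 scale, and RECK, a membrane-bound inhibitor, rose by 0.70. Among the proteases, ADAM19 (log2 fold change 0.93), ADAMTS15 (1.21), ADAMTS7 (2.20), MMP9 (1.88) and MMP11 (1.87) rose. The interstitial collagenases MMP1 (647 and 631 at 3 days, 279 and 290 at 7 days) and MMP13 (814 and 831, 338 and 425) fell, with no overlap between time points. With 1 library left out, 11 to 15 of these genes were higher and 2 lower. The 172 genes of the 5 matrix lists in the table together made up 4.09% and 4.26% of normalized counts at 3 days and 5.95% and 5.68% at 7 days, and 2.65% and 2.79% against 3.31% and 3.07% without FN1, TGFBI and VCAN.

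**Figure D3:**
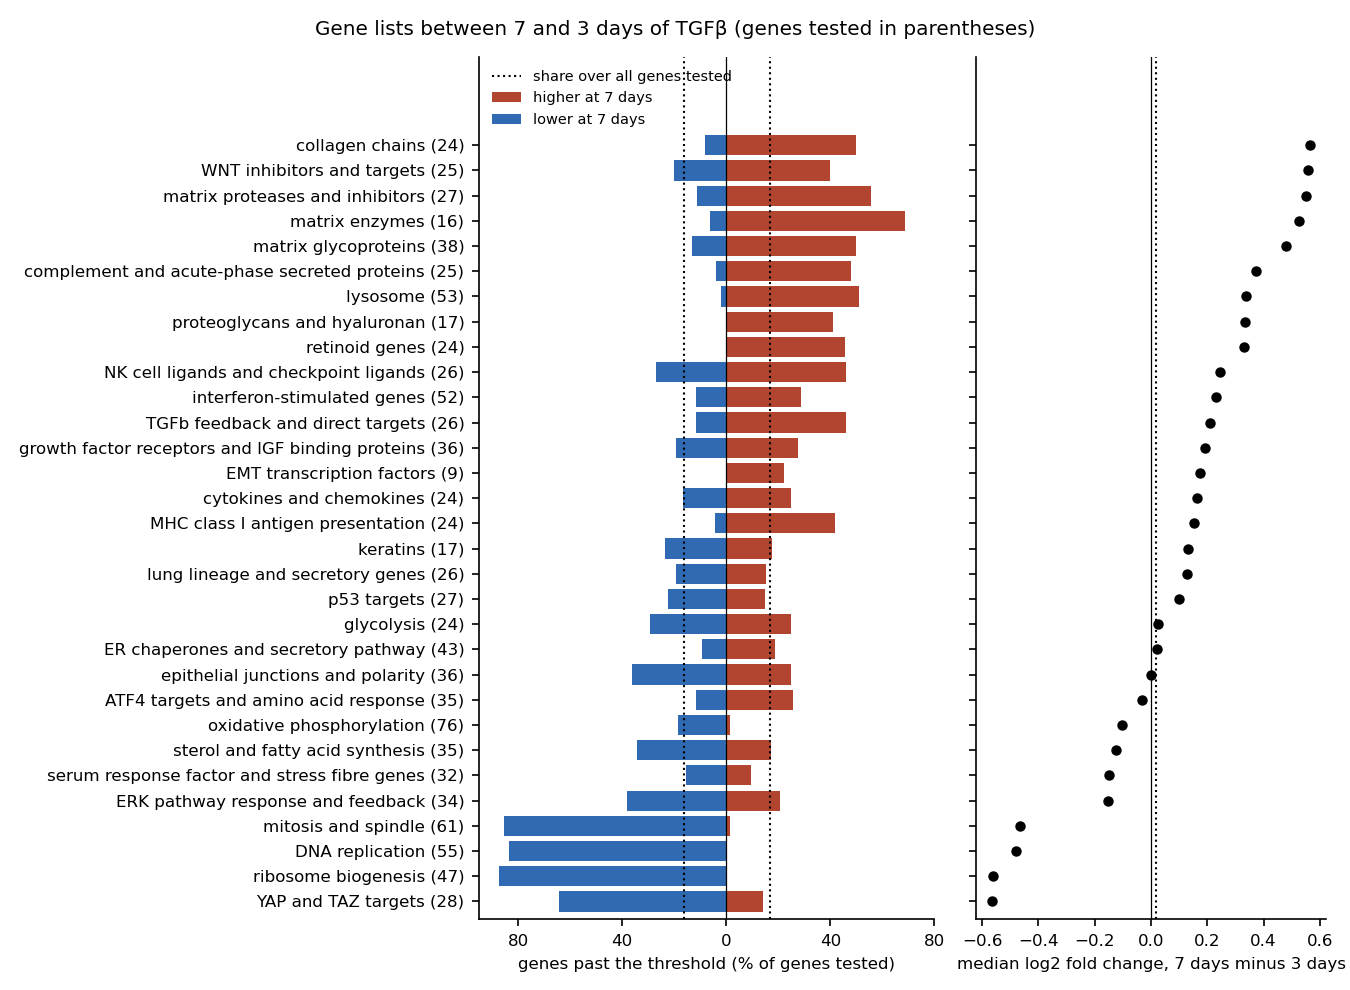
Left, the share of the tested genes of each list that were called higher (right of 0) or lower (left of 0) at 7 days, with dotted lines at the shares over all genes tested, 17.0% and 16.2%. Right, the median log2 fold change of each list, with a dotted line at the median of all genes. YAP and TAZ targets, ribosome biogenesis, DNA replication and mitosis lie at the bottom, and the matrix lists near the top.

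Genes that report on TGFβ signaling itself had more higher than lower calls. Of 26 feedback and direct target genes tested, 12 were higher, 3 lower and 11 not called, with a median of 0.21. PMEPA1, a SMAD-binding feedback inhibitor, had 9312 and 9610 at 3 days and 21675 and 21001 at 7 days (log2 fold change 1.17, standard error 0.17, adjusted p = 0.000527). SKIL, a SMAD corepressor, had 8713 and 7657 at 3 days and 15652 and 16727 at 7 days (log2 fold change 0.99, standard error 0.09, adjusted p = 3.36e-05). Both genes had higher counts in each 7-day library than in each 3-day library. The receptor TGFBR1 rose by 0.91 on the log2 scale, and ID1 and ID3, inhibitors of helix-loop-helix factors that respond to BMP signaling, rose by 1.35 and 1.03. SMAD7, the inhibitory SMAD induced by TGFβ, was not called (log2 fold change -0.10, adjusted p = 0.690). SMAD3, which carries the signal, fell from 8171 and 7518 to 5101 and 4843 (log2 fold change -0.66), and the ligand gene TGFB2 fell from 261 and 211 to 98 and 128 (-1.06). The count of higher genes was 6 without the first 7-day library and 6 to 11 over the 4 fits that left out 1 library.

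YAP and TAZ target genes were mostly called lower. Of 28 targets tested, 18 were lower and 4 higher at 7 days, against 16.2% and 17.0% of all genes, and their median log2 fold change was -0.57. ANKRD1 (chr10:92671853-92680844 on GRCh37), a cardiac ankyrin repeat protein used as a YAP reporter, had 173 and 138 at 3 days and 3 and 6 at 7 days (log2 fold change -4.88, standard error 0.39, adjusted p = 1.20e-05). CYR61, a matricellular protein now named CCN1 (chr1:86046444-86050272), had 15074 and 14686 at 3 days and 1408 and 1262 at 7 days (log2 fold change -3.48, standard error 0.21, adjusted p = 1.62e-06). CTGF, the connective tissue growth factor now named CCN2, had 4608 and 3657 at 3 days and 881 and 751 at 7 days (log2 fold change -2.33, standard error 0.21, adjusted p = 2.37e-05). In each of the 3 genes both 7-day libraries were below both 3-day libraries and below both SB libraries, which were at 258 and 108 for ANKRD1, 11080 and 5910 for CYR61 and 3032 and 1724 for CTGF. The second SB library was the lower one in all 3 genes.

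The coagulation starter F3 (tissue factor) had 3992 and 3210 at 3 days and 782 and 720 at 7 days (log2 fold change -2.25). The receptor kinase AXL had 4161 and 4344 at 3 days and 1080 and 961 at 7 days (log2 fold change -2.06). AMOTL2, an inhibitor of YAP that YAP induces, had 4258 and 3816 at 3 days and 1074 and 910 at 7 days (log2 fold change -2.03). None of these 3 genes overlapped between the time points. DLC1 (log2 fold change -1.61), FJX1 (-1.46), GADD45B (-1.01), AJUBA (-0.77), MYOF (-0.61) and CRIM1 (-0.57) fell as well. NT5E, the ectonucleotidase CD73, went against the list with 48388 and 45747 at 3 days and 68361 and 73595 at 7 days (log2 fold change 0.59, standard error 0.09, adjusted p = 0.000632), and AMOTL1 rose by 0.38 on the log2 scale. With 1 TGFβ library left out, 15 to 17 targets were lower and 2 to 4 higher, and the median ranged from -0.63 to -0.54.

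The promoters of ANKRD1 and CTGF hold the letters GGAATG, the core bound by TEAD factors. The windows of 100 bases around the first match are shown because these genes gave the largest falls of the list among those with a match, with GGAATG or its reverse complement in capitals (RefSeq, GRCh38.p14, minus strand, chr10:90921238-90921337 for ANKRD1 and chr6:131951489-131951588 for CTGF, printed 5′ to 3′ on the gene's strand).
ANKRD1: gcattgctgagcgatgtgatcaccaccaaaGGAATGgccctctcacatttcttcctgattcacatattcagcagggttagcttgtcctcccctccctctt
CTGF: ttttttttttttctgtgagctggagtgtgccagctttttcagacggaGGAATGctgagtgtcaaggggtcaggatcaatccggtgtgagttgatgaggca
GGAATG occurred on either strand, from 250 bases before to 50 bases after the start, in 7 of the 22 YAP and TAZ targets that matched a promoter (31.8%), in 14.0% of all promoters and in 10.8% of those of the genes tested. Of the 7 targets that hold it, 5 were called lower, beside 18 of all 28 targets tested. A match is a description of the letters and not a mapped binding site.

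Genes of the actin cytoskeleton that depend on serum response factor (SRF) had calls in both directions. Of 32 tested, 3 were higher and 5 lower, shares near or below those over all genes, and the median was -0.15. LIMA1, an actin bundling protein, had 10171 and 9164 at 3 days and 5639 and 5884 at 7 days (log2 fold change -0.74, standard error 0.09, adjusted p = 0.000130). TPM1, a tropomyosin of stress fibers, had 5379 and 5029 at 3 days and 7497 and 8027 at 7 days (log2 fold change 0.58, standard error 0.11, adjusted p = 0.00272). CALD1 (caldesmon) had 2252 and 2154 at 3 days and 3426 and 3653 at 7 days (log2 fold change 0.68). FHL1 had 1136 and 1115 at 3 days and 2388 and 2357 at 7 days (log2 fold change 1.08). Each of these 4 genes was separated between the time points, LIMA1 downward and the other 3 upward. ACTA2, the smooth muscle actin, was not called (log2 fold change -0.38, adjusted p = 0.306) and neither was TAGLN (0.43, 0.205). The CArG box, the SRF recognition sequence, searched for on both strands of the same windows, was present in 7 of the 30 matched promoters of the list (23.3%) and in 1.29% of all promoters. The median was -0.08 without the second 3-day library and without the second 7-day library, and 2 to 7 genes were lower with 1 library left out.

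**Figure D4:**
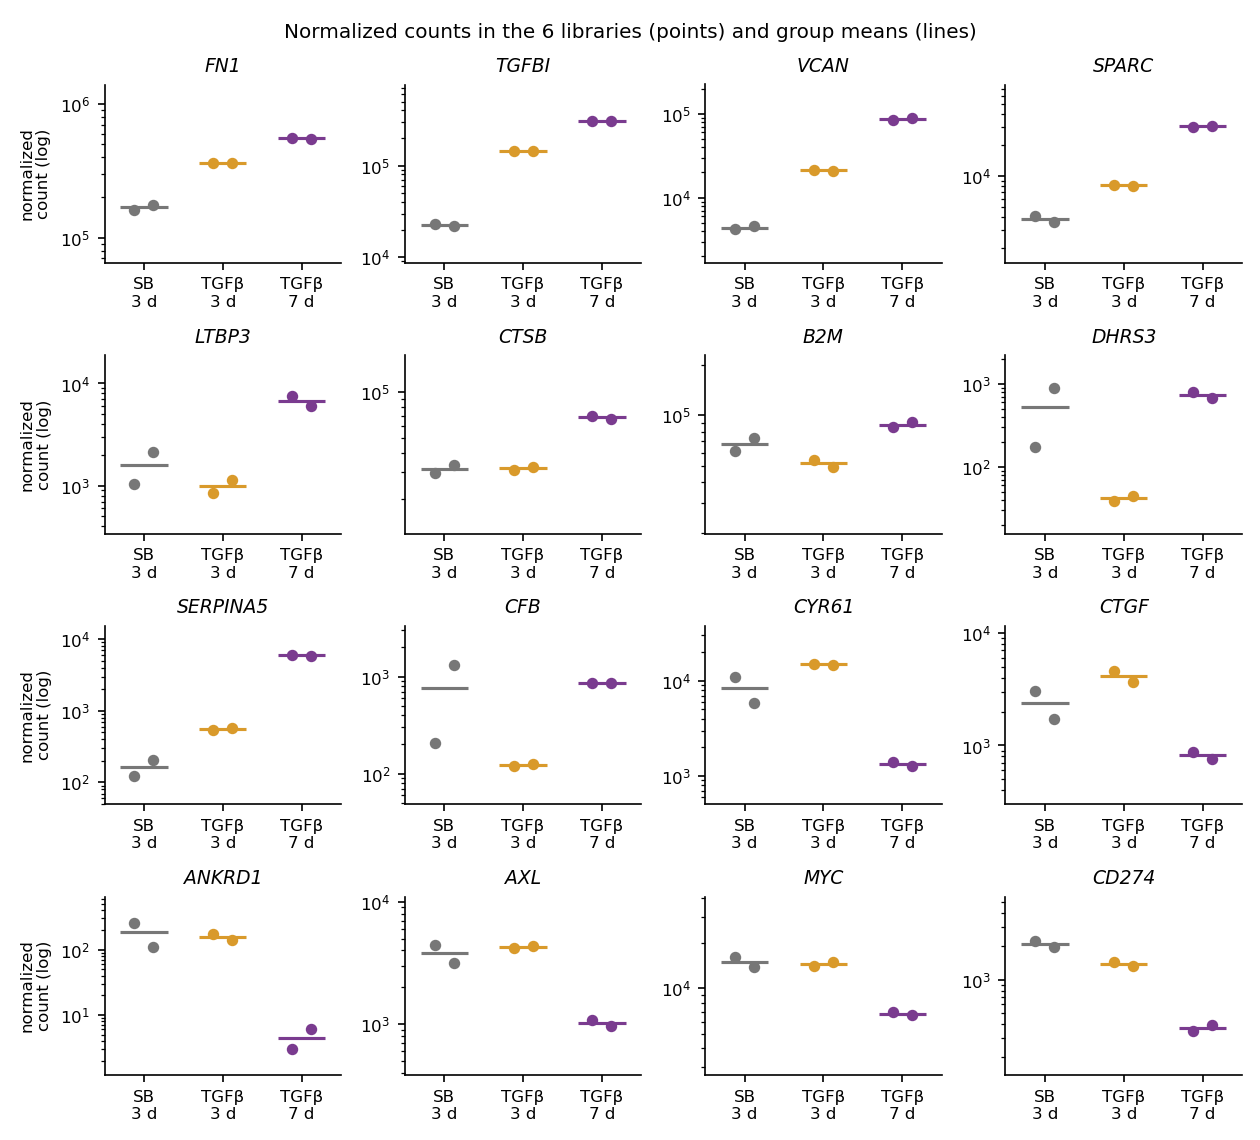
Points are the normalized counts of 16 genes in the 6 libraries on log axes, and lines are the means of 2 libraries, for SB at 3 days and for TGFβ at 3 and 7 days. FN1, TGFBI, VCAN and SPARC step up at each group, CYR61, CTGF, ANKRD1, AXL, MYC and CD274 are lowest at 7 days, and DHRS3, CFB and LTBP3 differ more within the SB pair than within either TGFβ pair.

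Retinoid genes, which take up, carry and metabolize vitamin A and its active form retinoic acid, were called in 1 direction. Of 24 tested, 11 were higher and 0 were lower (1 at an unadjusted p under 0.05), with a median of 0.33. DHRS3 (chr1:12627939-12678216), which reduces retinaldehyde to retinol and is induced by retinoic acid, had 39 and 44 at 3 days and 789 and 671 at 7 days (log2 fold change 4.10, standard error 0.51, adjusted p = 0.000184). STRA6, the receptor for the plasma carrier of retinol, had 414 and 543 at 3 days and 3667 and 3031 at 7 days (log2 fold change 2.81, standard error 0.32, adjusted p = 0.000100). CRABP2, which delivers retinoic acid to its nuclear receptor, had 85 and 103 at 3 days and 336 and 354 at 7 days (log2 fold change 1.87), and it was not called when low genes were kept in the fit. All 3 genes were above both 3-day libraries in each 7-day library. In SB they were at 175 and 888 for DHRS3, 37 and 95 for STRA6 and 478 and 1311 for CRABP2, so that for DHRS3 the 7-day libraries lay between the SB libraries. ALDH1A3, an enzyme that makes retinoic acid, was not called (log2 fold change 0.09, adjusted p = 0.447). Dropping a library left 7 to 11 genes of the list higher, 7 without either 7-day library.

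MHC class I molecules show peptides from inside the cell to cytotoxic T cells. Of 24 tested, 10 were higher and 1 lower, with a median of 0.15. The second SB library exceeded the first in 20 of the 24, with a larger median difference (0.26). HLA-B had 4111 and 4295 at 3 days and 10448 and 9795 at 7 days (log2 fold change 1.27, standard error 0.16, adjusted p = 0.000219). HLA-C had 3276 and 3719 at 3 days and 6569 and 6067 at 7 days (log2 fold change 0.85). B2M, their common light chain, rose by 0.77 and the peptide loading factor TAPBP (tapasin) by 0.86 on the log2 scale. The 3-day and 7-day libraries did not overlap in any of these 4 genes. HLA genes share sequence, so that reads could be split between them. The immunoproteasome subunits PSMB8 (log2 fold change -0.11, adjusted p = 0.396) and PSMB9 (0.17, 0.420) were not called. TAP2, the gene that was lower, lost its call in each fit that left out 1 TGFβ library, and 8 to 9 genes were higher in those fits.

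Interferon-stimulated genes were mixed, with 15 of 52 higher and 6 lower, and a median of 0.23. STAT2, a transducer of the interferon signal, rose by 0.62, LGALS3BP by 0.78 and UBA7, which activates ISG15, by 0.74, while IFI44 had a log2 fold change of -0.52. ISG15 (log2 fold change -0.45, adjusted p = 0.163) and IFIT1 (0.11, 0.615) were not called, though ISG15 was called lower without the first 7-day library (-0.81, adjusted p = 0.0379). With 1 library left out, 5 to 11 of these genes were higher, the fewest without the second 7-day library. The second SB library exceeded the first in 48 of the 52 genes, with a median difference of 0.43 on the log2 scale, which is larger than the median difference between the time points.

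Ligands that activate or restrain natural killer (NK) and T cells also split. Of 26 tested, 12 were higher and 7 lower, with a median of 0.25. CD274, the checkpoint ligand PD-L1, had 1444 and 1343 at 3 days and 347 and 394 at 7 days (log2 fold change -1.91, standard error 0.12, adjusted p = 1.63e-06), lower in both 7-day libraries than in both 3-day libraries and in both SB libraries (2246 and 1962). NCR3LG1 (B7-H6), a ligand of the activating receptor NKp30, had 2122 and 1993 at 3 days and 1209 and 1110 at 7 days (log2 fold change -0.83, standard error 0.11, adjusted p = 0.000329), and PVR, a ligand of DNAM-1 and TIGIT, fell from 4177 and 4307 to 3017 and 2899 (-0.52). On the other side, the NKG2D ligand ULBP1 had 219 and 220 at 3 days and 476 and 555 at 7 days (log2 fold change 1.22, standard error 0.15, adjusted p = 0.000151). The adhesion molecule CD58 had 1932 and 1758 at 3 days and 3454 and 3746 at 7 days (log2 fold change 0.96). CD276 (B7-H3) had 3313 and 3521 at 3 days and 5764 and 5594 at 7 days (log2 fold change 0.73). The death ligand TNFSF10 (TRAIL) had 131 and 122 at 3 days and 325 and 327 at 7 days (log2 fold change 1.36). The libraries of the time points were separate in each of these 7 genes. In the fits that left out 1 library, 9 to 11 genes of the list were higher and 4 to 6 lower.

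Complement and acute-phase genes, which encode plasma proteins mostly made by the liver, had 12 higher and 1 lower of 25, with a median of 0.37. SERPINA3, an inhibitor of chymotrypsin-like proteases, had 8 and 9 at 3 days and 185 and 196 at 7 days (log2 fold change 4.33, standard error 0.41, adjusted p = 3.17e-05). CFI, which degrades active complement, had 474 and 511 at 3 days and 2207 and 2448 at 7 days (log2 fold change 2.24, standard error 0.32, adjusted p = 0.000474). SERPINA1 (α1-antitrypsin) had 5496 and 5383 at 3 days and 11332 and 11308 at 7 days (log2 fold change 1.06). C1S, a protease of the first complement component, had 58 and 48 at 3 days and 206 and 211 at 7 days (log2 fold change 1.96). Both 7-day libraries were above both 3-day libraries in all 4 genes. CFB, complement factor B, had 121 and 125 at 3 days and 861 and 851 at 7 days (log2 fold change 2.79, standard error 0.57, adjusted p = 0.00347), but the SB libraries were 208 and 1329, and it was not called with low genes kept in the fit (adjusted p = 0.0785) or with no trend in limma (0.0616). The number of genes higher was 9 to 11 in the fits that left out 1 library.

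Cytokine and chemokine genes gave 6 higher and 4 lower of 24, with a median of 0.16. IL11, a cytokine of the IL6 family that TGFβ induces, had 385 and 443 at 3 days and 1045 and 869 at 7 days (log2 fold change 1.20, standard error 0.22, adjusted p = 0.00189). IL1A had 92 and 72 at 3 days and 264 and 264 at 7 days (log2 fold change 1.69). The chemokine CX3CL1 had 149 and 165 at 3 days and 422 and 360 at 7 days (log2 fold change 1.31). CCL26, another chemokine, had 14 and 8 at 3 days and 90 and 89 at 7 days (log2 fold change 2.96). CCL20, a chemokine too, had 46 and 37 at 3 days and 16 and 15 at 7 days (log2 fold change -1.36). CCL20 was lower and the other 4 were higher in both 7-day libraries. The number of lower genes ranged over 1 to 3 in the fits that left out 1 library and was 1 without the first 3-day library or the first 7-day library.

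Growth factor receptors and IGF binding proteins changed in both directions, 10 higher and 7 lower of 36, with a median of 0.19. IGFBP5, which binds insulin-like growth factors, had 5 and 11 at 3 days and 276 and 280 at 7 days, against 3 and 12 in SB, the largest log2 fold change of any gene tested (log2 fold change 5.04, standard error 0.50, adjusted p = 4.54e-05). IGFBP6 rose from 2292 and 2802 to 5819 and 5079 (log2 fold change 1.10), while IGFBP4 fell from 7178 and 7485 to 4139 and 4111 (-0.83) and IGFBP1 from 59 and 59 to 11 and 17 (-2.03). PDGFRB, a receptor for platelet-derived growth factor, had 66 and 75 at 3 days and 354 and 270 at 7 days (log2 fold change 2.12, standard error 0.23, adjusted p = 7.62e-05). DDR1, a collagen receptor kinase, had 654 and 786 at 3 days and 2410 and 2227 at 7 days (log2 fold change 1.69, standard error 0.15, adjusted p = 2.66e-05), and the coreceptors NRP1 and NRP2 rose by 0.64 and 0.83 on the log2 scale. MERTK, like AXL a receptor of the TAM family, had 735 and 782 at 3 days and 202 and 253 at 7 days (log2 fold change -1.74, standard error 0.13, adjusted p = 7.44e-06). TYRO3, the remaining member of that family, was not called (log2 fold change 0.27, adjusted p = 0.0791). For EGFR (log2 fold change -0.03, 0.821) and ERBB2 (0.18, 0.390) the fit gave no call. Without 1 of the TGFβ libraries, 8 to 10 genes of the list were higher and 4 to 5 lower.

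WNT genes had 10 higher and 5 lower of 25, with a median of 0.56. AXIN2, a feedback gene induced by β-catenin, had 16 and 10 at 3 days and 76 and 68 at 7 days (log2 fold change 2.41, standard error 0.40, adjusted p = 0.00115). TCF7, a partner of β-catenin, had 521 and 578 at 3 days and 1894 and 1835 at 7 days (log2 fold change 1.76, standard error 0.13, adjusted p = 5.64e-06). Among ligands and receptors, WNT5B had 23 and 22 at 3 days and 145 and 128 at 7 days (log2 fold change 2.55). WNT5A had 920 and 953 at 3 days and 2594 and 2824 at 7 days (log2 fold change 1.53). FZD1 had 179 and 197 at 3 days and 530 and 593 at 7 days (log2 fold change 1.57). The Dickkopf inhibitors parted, with DKK1 rising from 2249 and 2165 to 4115 and 4327 (log2 fold change 0.93, standard error 0.09, adjusted p = 3.22e-05) and DKK3 falling from 402 and 334 to 39 and 36 (log2 fold change -3.26, standard error 0.18, adjusted p = 1.07e-06). All 7 genes were without overlap between the time points. The median of the list rested on low genes and on single libraries. It was 0.19 over the members with a mean of at least 50, 0.23 without the first 3-day library, 0.34 without the second and 0.29 when the first 7-day library was dropped, with 6 to 9 genes higher and 2 to 4 lower over the fits that left out 1 library.

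Epithelial genes did not change as a block. Of 36 junction and polarity genes tested, 9 were higher and 13 lower, with a median of 0.00126. EPCAM, an epithelial adhesion molecule, had 6610 and 5994 at 3 days and 2988 and 3277 at 7 days (log2 fold change -1.01, standard error 0.09, adjusted p = 2.82e-05). The splicing regulator ESRP2 had 386 and 447 at 3 days and 149 and 121 at 7 days (log2 fold change -1.62, standard error 0.15, adjusted p = 2.69e-05). CDH1 (E-cadherin) was at 28 and 24 at 3 days and 10 and 9 at 7 days, against 371 and 635 in SB. JUP (plakoglobin) rose from 3186 and 4297 to 9451 and 7419 (log2 fold change 1.18, standard error 0.18, adjusted p = 0.000588), F11R, a junctional adhesion molecule, from 3436 and 3280 to 5475 and 5804 (0.75) and the desmosomal cadherin DSC2 from 2422 and 2290 to 3336 and 3747 (0.59). The first 3 genes were lower and the last 3 higher in every 7-day library than in every 3-day library. Leaving out 1 library left 4 to 8 genes of the list higher, 4 without the first 3-day or the first 7-day library, and 9 to 11 lower. Of 17 keratins, 3 were higher and 4 lower, with a median of 0.13. KRT80 fell from 1235 and 1286 to 240 and 230 (log2 fold change -2.42, standard error 0.10, adjusted p = 1.69e-07), whereas KRT8, a main keratin of simple epithelia, was at 33341 and 39167 and 42692 and 36786 (0.13, adjusted p = 0.377). The 3 keratins called higher lost their calls without the first library of either time point, and the median ranged over -0.01 to 0.46 in the 4 fits that left out 1 library.

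EMT transcription factors gave 2 higher and 0 lower (1 at an unadjusted p under 0.05) of 9, 1 of them higher with any TGFβ library left out, with a median of 0.17 that turned to -0.12 without 7-day library 1 and to -0.0025 without 3-day library 1. HMGA2, a chromatin protein that cooperates with SMADs, had 22424 and 22138 at 3 days and 38990 and 43996 at 7 days (log2 fold change 0.89, standard error 0.08, adjusted p = 2.69e-05). SNAI2 (log2 fold change -0.15, adjusted p = 0.436) and SNAI1 (0.51, 0.0789) were not called. SNAI1 passed the threshold with only the 4 TGFβ libraries in the fit (adjusted p = 0.0417) and without the first SB library (0.0490), and its adjusted p was 0.0760 to 0.434 without 1 TGFβ library. Lung lineage genes counted 4 higher and 5 lower of 26, shares near the background, with a median of 0.13. SOX9, a factor of distal lung progenitors, had 1233 and 1365 at 3 days and 2591 and 2769 at 7 days (log2 fold change 1.05, standard error 0.12, adjusted p = 9.31e-05). GATA6 had 302 and 249 at 3 days and 151 and 169 at 7 days (log2 fold change -0.78). CEACAM6 had 270 and 262 at 3 days and 127 and 163 at 7 days (log2 fold change -0.88). The phospholipid enzyme LPCAT1 had 4547 and 4519 at 3 days and 2821 and 2903 at 7 days (log2 fold change -0.66). Of these genes only SOX9 was higher in both 7-day libraries, and the other 3 were lower. NKX2-1, the lung master regulator, was not called (log2 fold change 0.23, adjusted p = 0.0922). The second SB library exceeded the first in 23 of the 26 lung genes, with a median difference of 0.59, and without either 7-day library 2 genes were higher.

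Immediate and feedback genes of the RAS/ERK pathway also parted into groups. Of 34 tested, 13 were lower and 7 higher, with a median of -0.15 that ranged from -0.28 without the first 7-day library to -0.05 without the second. MYC had 14016 and 14898 at 3 days and 6907 and 6614 at 7 days (log2 fold change -1.10, standard error 0.09, adjusted p = 1.44e-05). FOSL1, an AP-1 subunit, had 12415 and 13592 at 3 days and 4712 and 4433 at 7 days (log2 fold change -1.51, standard error 0.16, adjusted p = 7.70e-05). HBEGF, a ligand of EGFR, had 2402 and 2275 at 3 days and 1145 and 1105 at 7 days (log2 fold change -1.05). SPRY2, a feedback inhibitor, had 3373 and 3468 at 3 days and 1696 and 1586 at 7 days (log2 fold change -1.06). DUSP6, an ERK phosphatase, rose from 6104 and 6289 to 10336 and 9939 (log2 fold change 0.71, standard error 0.08, adjusted p = 7.56e-05), DUSP4 from 723 and 816 to 1590 and 1714 (1.10), ETV5 from 10658 and 10259 to 13883 and 14360 (0.43) and PHLDA1 from 15570 and 15356 to 23706 and 25673 (0.67). The first 4 genes were lower and the last 4 higher at 7 days, without overlap. Lower genes numbered 8 to 12 and higher genes 4 to 7 in the fits that left out 1 library.

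Most of the tested genes for DNA replication, mitosis and ribosome production were called lower. Of 55 replication genes tested, 46 were lower and 0 higher (0 at an unadjusted p under 0.05), against 16.2% and 17.0% of all genes, with a median of -0.48. RRM2, a subunit of ribonucleotide reductase, had 17153 and 15745 at 3 days and 7765 and 8191 at 7 days (log2 fold change -1.04, standard error 0.10, adjusted p = 4.27e-05). CDC6, which loads the replicative helicase, had 3938 and 3548 at 3 days and 1880 and 1781 at 7 days (log2 fold change -1.03, standard error 0.11, adjusted p = 7.70e-05). MCM10 had 1698 and 1480 at 3 days and 907 and 848 at 7 days (log2 fold change -0.85, standard error 0.11, adjusted p = 0.000192). Of 61 mitosis genes, 52 were lower and 1 was higher, with a median of -0.46. UBE2C, a ubiquitin enzyme of mitotic exit, had 9082 and 9004 at 3 days and 4543 and 4897 at 7 days (log2 fold change -0.94, standard error 0.10, adjusted p = 7.68e-05). The kinase AURKB had 2341 and 2494 at 3 days and 1353 and 1311 at 7 days (log2 fold change -0.86, standard error 0.09, adjusted p = 6.49e-05). The transcription factor FOXM1 had 6812 and 7031 at 3 days and 4297 and 4140 at 7 days (log2 fold change -0.71, standard error 0.09, adjusted p = 0.000180). In each of the 6 genes both 7-day libraries lay below both 3-day libraries. The changes were of moderate size, with a range from -1.04 to 0.05 for replication and from -0.94 to 0.32 for mitosis. CDC25B, the mitosis gene that was higher, was not called without the first 3-day library or without either 7-day library. With 1 library left out, 28 to 35 replication and 32 to 43 mitosis genes were lower.

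Windows of 100 bases from the promoters of CDC6 and E2F2 are shown for the letters TTTGGCGC, TTTCCCGC or TTTCGCGC, forms of the E2F site, and those of HMMR and CDC20 for TTTGAA or TTCGAA, forms of the cell cycle genes homology region (CHR). They belong to the called genes with the largest falls among those of each list with a match, and matches on either strand are in capitals (RefSeq, GRCh38.p14, chr17:40287829-40287928 plus strand for CDC6, chr1:23531222-23531321 minus strand for E2F2, chr5:163460557-163460656 plus strand for HMMR, chr1:43358756-43358855 plus strand for CDC20).
CDC6: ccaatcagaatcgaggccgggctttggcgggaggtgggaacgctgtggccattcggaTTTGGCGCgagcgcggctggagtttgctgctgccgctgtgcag
E2F2: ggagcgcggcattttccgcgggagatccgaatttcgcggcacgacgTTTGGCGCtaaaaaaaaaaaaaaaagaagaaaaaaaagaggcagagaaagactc
HMMR: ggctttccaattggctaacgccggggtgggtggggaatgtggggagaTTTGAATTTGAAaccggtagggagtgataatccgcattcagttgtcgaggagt
CDC20: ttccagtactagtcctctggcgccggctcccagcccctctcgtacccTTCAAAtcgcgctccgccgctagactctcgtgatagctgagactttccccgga
An E2F form was present in 20 of the 47 matched promoters of replication genes (42.6%), in 2.79% of all promoters and in 4.46% of those tested and 6.85% of those called lower. A CHR form was present in 38 of the 52 matched promoters of mitosis genes (73.1%), in 16.6% of all promoters and in 11.3% of those tested and 15.9% of those called lower. E2F2 itself had 191 and 175 at 3 days and 95 and 103 at 7 days (log2 fold change -0.88). CDC20 had 4904 and 5250 at 3 days and 3026 and 2817 at 7 days (log2 fold change -0.80). HMMR had 3791 and 3468 at 3 days and 1907 and 2133 at 7 days (log2 fold change -0.85). Each was lower in both 7-day libraries.

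Ribosome biogenesis, the making of ribosomes in the nucleolus, had 41 of 47 genes lower and 0 higher (0 at an unadjusted p under 0.05), with a median of -0.56 and a range from -1.10 to 0.18. POLR1E, a subunit of RNA polymerase I, had 1207 and 1140 at 3 days and 612 and 621 at 7 days (log2 fold change -0.93, standard error 0.10, adjusted p = 7.88e-05). BOP1, a factor of the large subunit, had 565 and 746 at 3 days and 416 and 312 at 7 days (log2 fold change -0.85, standard error 0.16, adjusted p = 0.00261). NOP56, a core protein of box C/D particles, had 12343 and 11623 at 3 days and 7197 and 7333 at 7 days (log2 fold change -0.72, standard error 0.08, adjusted p = 7.16e-05). These 3 genes were lower in both 7-day libraries. The list includes MYC, a known activator of ribosome production, which is described with the ERK pathway. CACGTG, the E-box that MYC binds, was present in 13 of the 38 matched promoters of the list (34.2%), in 7.43% of all promoters and in 10.1% of those tested and 12.7% of those called lower. The list made up 1.09% and 1.05% of normalized counts at 3 days and 0.717% and 0.721% at 7 days. Dropping a library left 33 to 37 genes lower.

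Lysosomal genes, for the acid hydrolases and membrane proteins of the degradative compartment, were called higher more often than lower. Of 53 tested, 27 were higher, 1 was lower and 25 were not called, with a median of 0.34. CTSB had 31073 and 32360 at 3 days and 69553 and 67136 at 7 days (log2 fold change 1.11, standard error 0.08, adjusted p = 7.82e-06). PSAP, the precursor of the saposins, had 33325 and 34906 at 3 days and 66520 and 63497 at 7 days (log2 fold change 0.93, standard error 0.09, adjusted p = 3.91e-05). In SB it was at 47294 and 55621, above both 3-day libraries. NPC2, which carries cholesterol out of the lysosome, had 3917 and 3829 at 3 days and 8808 and 8769 at 7 days (log2 fold change 1.18, standard error 0.10, adjusted p = 1.44e-05). TFEB, a transcription factor that drives lysosomal genes, had 18 and 49 at 3 days and 206 and 169 at 7 days (log2 fold change 2.61, standard error 0.45, adjusted p = 0.00136). Dropping either 3-day library moved this value, to 1.91 for the first and 3.30 for the second. IDUA, an iduronidase, had 54 and 87 at 3 days and 245 and 185 at 7 days (log2 fold change 1.62, standard error 0.27, adjusted p = 0.00112). No 7-day library of these 5 genes overlapped with a 3-day library. IDS, the gene that was lower, lost its call in each fit that left out 1 TGFβ library, while 20 to 24 genes were higher in those fits. CTSA (cathepsin A, log2 fold change 0.60) carries TCACGTGA, the CLEAR element bound by TFEB, which contains the E-box CACGTG and is in capitals in the window shown (RefSeq, GRCh38.p14, chr20:45891263-45891362, plus strand).
CTSA: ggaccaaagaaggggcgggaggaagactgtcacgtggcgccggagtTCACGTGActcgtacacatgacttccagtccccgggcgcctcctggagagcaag
The element was present in 5 of the 33 matched promoters of the list (15.2%), in 1.04% of all promoters and in 1.87% of those tested. Of the 5 genes, 2 were called higher, and the element was in 1.78% of the promoters of all genes called higher.

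Metabolic and stress lists changed little in their medians. Oxidative phosphorylation had 1 higher and 14 lower of 76 with a median of -0.10, and 1 to 4 lower in the fits that left out 1 library. CYC1, cytochrome c1, was the called member that held in all 4 of these fits (3088 and 3655 at 3 days and 2396 and 2038 at 7 days, log2 fold change -0.60, standard error 0.12, adjusted p = 0.00339). Glycolysis had 6 higher and 7 lower of 24, with a median of 0.03 that turned to -0.05 without the first 3-day library, and 1 to 3 lower with 1 library left out. HK2, the first enzyme of the pathway, had 4457 and 4519 at 3 days and 2622 and 2389 at 7 days (log2 fold change -0.84, standard error 0.09, adjusted p = 6.92e-05). PFKFB4, which makes an activator of phosphofructokinase, had 1267 and 1577 at 3 days and 3653 and 3774 at 7 days (log2 fold change 1.39, standard error 0.15, adjusted p = 7.52e-05). HK2 was lower and PFKFB4 higher in both 7-day libraries. In sterol and fatty acid synthesis, 6 were higher and 12 lower of 35, with a median of -0.12. SCD (log2 fold change 0.87) and ACSS2, an acetyl-CoA synthetase (0.90), rose, while FDFT1 of the cholesterol branch fell (-0.40), and with 1 library left out 4 to 7 were lower and 3 to 5 higher.

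ATF4 targets counted 9 higher and 4 lower of 35 (median -0.03), with PHGDH, the first enzyme of serine synthesis, at 5161 and 5628 at 3 days and 10925 and 9675 at 7 days (log2 fold change 0.93, standard error 0.09, adjusted p = 4.24e-05), DDIT4, an inhibitor of mTORC1, at 1544 and 1640 at 3 days and 6154 and 5783 at 7 days (log2 fold change 1.91, standard error 0.17, adjusted p = 2.04e-05) and ATF3 at 519 and 422 at 3 days and 146 and 163 at 7 days (log2 fold change -1.59, standard error 0.15, adjusted p = 3.19e-05). PHGDH and DDIT4 were higher and ATF3 lower in both 7-day libraries. ER chaperone and secretory genes counted 8 higher and 4 lower of 43 (median 0.02), near or below the background, with CREB3L1, an activator of collagen secretion genes, rising by 0.69 on the log2 scale. The p53 targets counted 4 higher and 6 lower of 27 (median 0.10), with TP53INP1 rising by 1.31 and PLK2, AEN, DDB2 and GADD45A at log2 fold changes of -1.18, -0.85, -0.68 and -0.71. With 1 library left out, 4 to 5 ATF4 targets, 1 to 4 ER genes and 2 to 4 p53 targets were higher. The median of the p53 targets was -0.05 without the first 3-day library, and that of the ER genes was -0.01 without the second 3-day library or the second 7-day library.

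Markers of stromal, endothelial and blood cells were low or at 0, with exceptions in each list. Of the 9 epithelial markers, all were detected in every group, with a summed level of 99676 to 111917 normalized counts at 3 days and 90513 to 103317 at 7 days. The fibroblast markers DCN, LUM and COL3A1 were at 0 in both 3-day libraries and at 0 or 1 at 7 days, and the 6 markers summed to 284 to 354 at 3 days and 466 to 596 at 7 days, nearly all from COL1A1 (267 and 337 and 581 and 457). The endothelial markers summed to 483 to 497 at 3 days and 545 to 568 at 7 days, with the defining CDH5 at 1 and 5 and at 2 and 0. PECAM1 was at 61 and 67 at 3 days and 56 and 53 at 7 days, and TEK, the endothelial marker called higher, at 65 and 58 and 115 and 117, while ERG (324 and 333 and 339 and 331) made up most of the sum. The leukocyte markers summed to 5006 to 5724 and 5611 to 6148, carried by CD68 and CSF1R, while PTPRC, which defines leukocytes, was at 0 in both 3-day libraries and at 4 and 3 at 7 days. CSF1R, a receptor of macrophages, was at 34 and 31 in SB, 626 and 677 at 3 days and 1114 and 1032 at 7 days (log2 fold change 0.72, standard error 0.14, adjusted p = 0.00298). Normalized counts summed to 34306283 to 36340734 per library, with 3337 to 3792 genes at 0.

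The difference within the SB pair had the same sign as the difference between the time points for several of these lists. The second SB library was lower than the first in 40 of the 55 replication genes, 51 of the 61 mitosis genes, 37 of the 47 ribosome biogenesis genes and 19 of the 28 YAP and TAZ targets, and it was higher in 17 of the 24 collagen genes and 19 of the 24 retinoid genes. The sizes were smaller, with medians of -0.09 for replication, -0.13 for mitosis, -0.09 for ribosome biogenesis, -0.13 for YAP and TAZ targets, 0.27 for collagens and 0.17 for retinoid genes. The matrix proteases (median -0.07) and the TGFβ feedback genes (-0.10) had the opposite sign, and the lysosomal genes had a median of 0.01, with 27 higher and 26 lower. For 10 of the 31 lists the median within the SB pair was larger in size than that between the time points, among them epithelial genes (0.11 against 0.00126), cytokines (0.37 against 0.16) and oxidative phosphorylation (-0.15 against -0.10), beside the MHC class I, interferon-stimulated and lung lineage genes. What set the SB libraries apart was not tested.

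**Figure D5:**
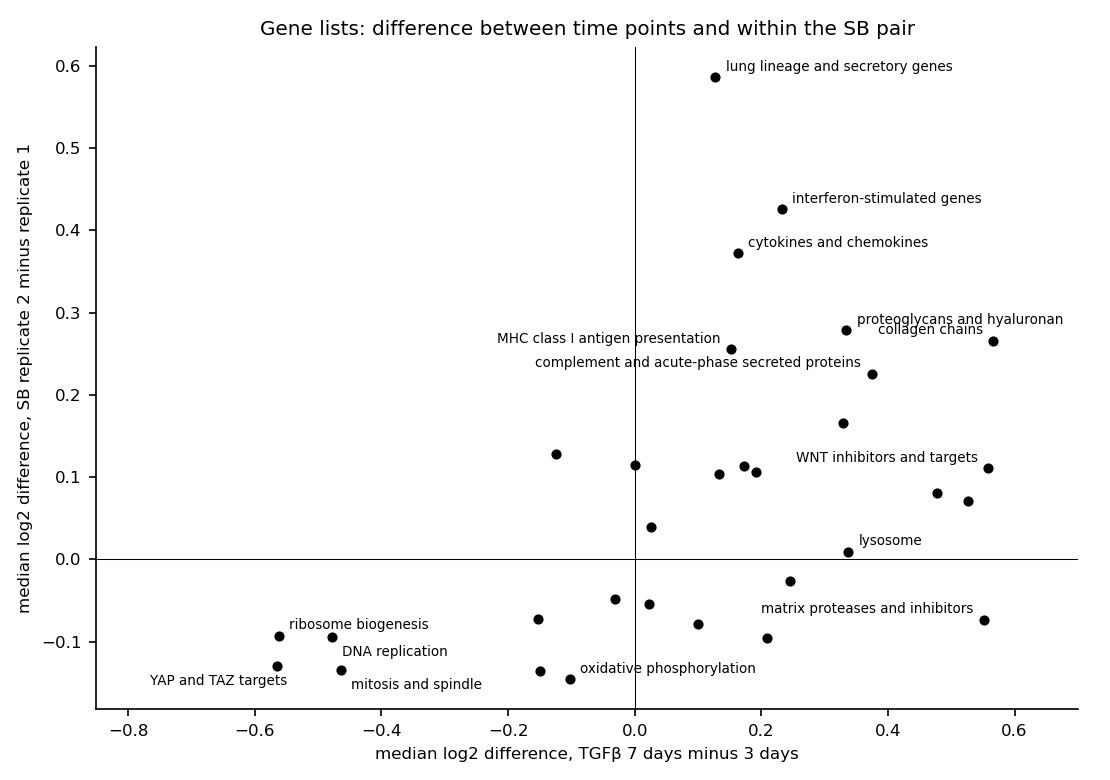
Each point is 1 of 31 gene lists, with its median log2 difference between 7 and 3 days of TGFβ on the horizontal axis and its median log2 difference between the second and the first SB library on the vertical axis. Replication, mitosis, ribosome biogenesis and YAP and TAZ targets lie below 0 on both axes, and interferon-stimulated and lung lineage genes differ more within the SB pair than between the time points.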

How the data were processed

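Poly(A) RNA was sequenced from 6 libraries, 2 per group, of H2087-LCC cells under SB or TGFβ. Reads were aligned by the authors to hg19 with STAR and counted per gene with HTSeq 0.6.1p1. The authors then scaled the counts for library size, and the deposited table, whose unit is recorded here as a score, holds these normalized counts rounded to whole numbers. They are not read counts, so no count model was fitted, and the depth of single libraries before scaling is not stated in the table. Values were taken as log2(value + 1), genes with a mean under 10 over the 6 libraries were left out, and limma 3.58.1 (R 4.3.3; group as the only term, 3 residual degrees of freedom, trended empirical Bayes) gave the difference of 7 days from 3 days, adjusted by the Benjamini-Hochberg method at 0.05. A fold change on the log2(value + 1) scale understates that of low genes.

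The genes, the 31 gene lists and the 4 lists of cell type markers were chosen with earlier results of these data known, so a list's count is not independent evidence. Genes were named by rule: the 12 largest rises and 12 largest falls among called genes whose mean was 100 or more, the 10 largest gains and losses in normalized counts, and, from each list, called members with the largest changes or those whose role explains the list. Within lists, members that kept their call in the alternatives were preferred, and some genes that the rule names are not reported here. Replicate numbers did not pair the libraries. Coordinates are from GENCODE on GRCh37, and 13751 of the 14395 symbols matched 1 gene there. Promoters are RefSeq windows on GRCh38.p14, matched for 11202 of the tested genes. Genes on chromosome 8 were left out when the windows to print were picked. The steps were checked on simulated data with noise drawn independently for each gene. That check did not cover differences between replicate libraries that many genes share. Python 3.11.15 with matplotlib 3.10.9 drew the figures. The alternatives were 15 set at the outset and 3 added after seeing the data.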

Additional observations from a re-analysis of the deposited data

How the results depend on the processing

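The number of called genes (4775) was between 4473 and 5583 with another pseudocount, a mean of at least 50, another scaling or only the 4 TGFβ libraries. It was 3042 (1545 higher, 1497 lower) without the filter on low values, 3122 (1410 lower) without the trend in limma, and 940 when the log2 fold change also had to pass 1. Leaving out 1 TGFβ library gave 2314 to 3284 called genes. Median-of-ratios size factors gave 2361 higher and 2462 lower, and moved the median of all genes by less than 0.1. Fits without 1 SB library, added after seeing the data, called 5550 and 5554 genes. Over these 6 fits, 1203 to 2915 genes were higher and 1111 to 2652 lower. Replicate numbers did not pair the libraries (Pearson r of the replicate differences was 0.14 between SB and 3 days, -0.10 between SB and 7 days and -0.29 between 3 and 7 days, over 14395 genes), and with the number as a replicate block 4485 genes were called. A fit that crossed the numbers of the TGFβ pairs, added after seeing the data, called 5972, among them ISG15, NKX2-1, SNAI1 and TYRO3.

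Among list medians, the EMT transcription factors were at 0.0225 and the WNT genes at 0.191 without the filter or at a minimum mean of 50, and the collagens at 0.678 at that minimum. Leaving out 1 library moved the medians of collagens (0.297 to 0.854), EMT transcription factors (-0.121 to 0.262), WNT genes (0.230 to 0.688), ERK genes (-0.280 to -0.0512), SRF genes (-0.155 to -0.0828), NK ligands (0.184 to 0.266), p53 targets (-0.0508 to 0.160), glycolysis (-0.0508 to 0.0259), sterol and fatty acid synthesis (-0.139 to -0.0340) and ATF4 targets (-0.0325 to -0.00162). The causes were not tested. With 2 libraries per group and 3 residual degrees of freedom, the precision of single genes is limited, and the depth of the libraries before scaling is unknown.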

Other observations

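Gene families outside the lists, chosen after their values were seen, also had calls mostly in 1 direction. Of 80 genes for cytosolic ribosomal proteins, 55 were lower (median log2 fold change -0.32), as were 44 of 76 for mitochondrial ribosomal proteins (-0.31), 18 of 23 for protein import into mitochondria (-0.40), 8 of 9 for the CCT chaperonin (-0.50), 14 of 19 nucleoporins (-0.34), 23 of 37 proteasome subunits (-0.27) and 12 of 16 SNHG genes, which host small nucleolar RNAs (-0.56). In each of these families 0 genes were higher by limma, also at an unadjusted p under 0.05. By contrast, 10 of 13 protocadherin β genes, neighbors in a cluster whose similar sequences can share reads, were higher (0.84), as were 9 of 17 semaphorins (0.49) and 6 of 11 synaptotagmins (0.75). SYT13 had 449 and 411 at 3 days and 1064 and 1110 at 7 days and SYT1 9154 and 8336 at 3 days and 11708 and 12600 at 7 days. The 3 SPRR2 genes tested, small proline-rich proteins of squamous epithelia, were lower (median -1.99). Over all genes, 17.0% were higher and 16.2% lower.

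Of 540 long non-coding RNA genes tested, 66 were higher and 66 lower. HAS2-AS1, antisense to HAS2, had 37 and 16 at 3 days and 99 and 109 at 7 days (log2 fold change 2.04). Without strand, reads from the stretch it shares with HAS2 (chr8:122651533-122653680 on GRCh37) cannot be told apart. MIR210HG, the host gene of a microRNA induced by hypoxia, had 38 and 69 at 3 days and 218 and 208 at 7 days (log2 fold change 2.03), and SFTA1P, a transcribed pseudogene of the surfactant family, had 111 and 70 at 3 days and 9 and 9 at 7 days (log2 fold change -3.16).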
